A study of Mus musculus with 6 samples.

Results

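The clustered Hox genes were followed in peak lists of methylated, CpG-dense DNA from I/11 cells, a line of mouse erythroblasts. The set comprises 38 Hox genes of clusters A to D, the genes of the clusters by name, out of 21887 protein-coding genes of the mouse RefSeq table. A peak was counted for a gene when it overlapped the gene body or the 10 kb on either side by at least 1 bp. Of the 12963 peaks in the 4 lists, 52 lay in such a window of a Hox gene. They merged into 30 distinct regions, of 10085 regions in the whole series.

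All libraries came from this 1 line, which was derived from p53-deficient fetal liver (E12.5), so every group, the controls included, was p53-deficient. Cells were infected with lentivirus carrying hairpin 133 or hairpin 14 against Plcg1, or a scrambled hairpin, and selected with 1 ug/ml puromycin for 48 h. Plcg1 encodes phospholipase C gamma 1, a signalling enzyme downstream of the erythropoietin receptor. The 0 h libraries were made 72 h after infection from cells in expansion medium with 1 U/ml erythropoietin, stem cell factor and dexamethasone. The 24 h libraries were made 96 h after infection, after 24 h in differentiation medium with 10 U/ml erythropoietin and transferrin. These results rest on 4 lists, 1 library for each Plcg1 hairpin and time, and the scrambled-hairpin libraries were not analysed here. The 0 h lists held 3900 peaks (hairpin 133) and 3437 peaks (hairpin 14), those of 24 h 2960 and 2666. A list gives positions only. No source used here tells if a listed region was richer or poorer in methylated DNA than some control, so a peak carries no direction, and the read depth behind it is unknown. With 1 library per group no difference has a replicate check and none was tested. Peak positions measure no transcript, so neither the knockdown nor the cell type on the label could be checked.

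Hox genes encode homeodomain transcription factors that give cells their position along the body axis. Mammals carry them in 4 clusters, in which all genes point the same way and lie in the order of the body regions they pattern. Genes of low number act toward the head and genes of high number toward the tail. In blood, genes of the HoxA and HoxB clusters are known for their activity in stem and progenitor cells, and Hoxa9 and Hoxa10 for their part in leukaemia. Silent Hox clusters are typically covered by Polycomb proteins, and their CpG islands can gain DNA methylation in cultured and malignant cells.

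The RefSeq promoter table (GRCm38.p6, the coordinates of mm10) matched 22 of the 38 Hox genes with 24 promoters, each reaching from 250 bases before to 50 bases after a start site. None of these 24 overlapped a peak, against 1.46% of the 32851 promoters in the table. So few promoters cannot tell none from a share of 1.46%. Hoxc4 was the only HoxC gene that matched. The genes without a promoter include Hoxc11 and Hoxc8, whose modelled starts were spanned by a peak, so the 24 do not stand for all Hox starts. The promoter of Hoxa11os, the antisense RNA gene that faces Hoxa11, had its last 30 bases in a peak. Its promoter and those of 4 Hox genes within 500 bp of a peak are shown with CpG, the dinucleotide at which MBD2-Fc binds methylated DNA, in capitals. They were chosen to give each cluster a promoter that lay next to a peak, and Hoxb1 was added because it had a pair of peaks in only 1 library.
Hoxa11os promoter, chr6:52244993-52245292, plus strand: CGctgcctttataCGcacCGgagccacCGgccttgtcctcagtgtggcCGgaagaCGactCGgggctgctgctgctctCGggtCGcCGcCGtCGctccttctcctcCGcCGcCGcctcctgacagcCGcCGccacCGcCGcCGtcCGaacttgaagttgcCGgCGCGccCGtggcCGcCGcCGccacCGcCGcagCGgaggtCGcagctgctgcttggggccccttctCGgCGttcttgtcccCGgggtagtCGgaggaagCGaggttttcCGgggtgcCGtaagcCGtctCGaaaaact
Hoxa11os, part inside the peak, chr6:52245263-52245292, plus strand: cCGgggtgcCGtaagcCGtctCGaaaaact
Hoxb8 promoter, chr11:96281655-96281954, plus strand: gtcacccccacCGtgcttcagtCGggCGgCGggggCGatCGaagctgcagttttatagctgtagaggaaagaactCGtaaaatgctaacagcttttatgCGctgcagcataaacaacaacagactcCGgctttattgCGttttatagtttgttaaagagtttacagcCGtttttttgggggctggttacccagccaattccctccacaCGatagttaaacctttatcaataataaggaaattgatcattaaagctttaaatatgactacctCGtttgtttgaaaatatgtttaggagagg
Hoxb1 promoter, chr11:96365508-96365807, plus strand: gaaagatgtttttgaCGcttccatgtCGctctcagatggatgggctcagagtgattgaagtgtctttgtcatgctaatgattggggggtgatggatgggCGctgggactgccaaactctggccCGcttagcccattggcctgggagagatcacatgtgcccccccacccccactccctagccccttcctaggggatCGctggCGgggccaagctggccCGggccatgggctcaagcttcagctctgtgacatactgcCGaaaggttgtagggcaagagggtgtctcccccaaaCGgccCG
Hoxc4 promoter, chr15:103034145-103034444, plus strand: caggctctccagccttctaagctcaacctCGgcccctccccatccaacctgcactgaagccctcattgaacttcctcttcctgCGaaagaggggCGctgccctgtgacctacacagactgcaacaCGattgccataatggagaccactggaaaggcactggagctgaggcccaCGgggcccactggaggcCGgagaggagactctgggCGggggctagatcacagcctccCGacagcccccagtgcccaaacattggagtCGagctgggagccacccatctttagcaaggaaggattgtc
Hoxd11 promoter, chr2:74682073-74682372, plus strand: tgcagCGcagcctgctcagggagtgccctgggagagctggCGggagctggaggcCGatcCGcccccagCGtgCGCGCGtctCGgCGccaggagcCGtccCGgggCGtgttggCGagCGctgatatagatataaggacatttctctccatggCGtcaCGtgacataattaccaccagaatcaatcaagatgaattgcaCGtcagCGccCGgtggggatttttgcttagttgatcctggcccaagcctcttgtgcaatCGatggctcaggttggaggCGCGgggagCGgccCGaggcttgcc

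The Hoxa11os promoter held 41 CpGs in 300 bases, a number that 3.46% of all promoters reached, and the 30 bases inside the peak held 4. The Hoxd11 promoter shown held 25 CpGs (18.4% of all promoters had as many). Another Hoxd11 promoter, at the outermost modelled start, held 4 (68.6%). The Hoxb8 promoter held 13 (37.9%), that of Hoxb1 10 (43.5%) and that of Hoxc4 9 (45.8%). In HoxA, a promoter of Hoxa10 (12 CpGs, 39.6%) and that of Hoxa11 (15, 34.6%) also lay within 500 bp of a peak and are not shown. Over the 24 Hox promoters the number of CpGs went from 4 to 45 with a median of 14.5, against 7 for all promoters, and every one of the 24 held a CpG, as did 94.6% of all promoters. The motif CG reads the same on both strands. Promoters of all genes that overlapped a peak, 479 in number, had a median of 17. The CpG-richest of the 24 Hox promoters were not those next to a peak: Hoxa13 (45 CpGs) lay 7855 bp from its nearest peak and Hoxd13 (37) lay 13374 bp away. The Hox genes without a matched promoter could not be compared.

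**Figure D1:**
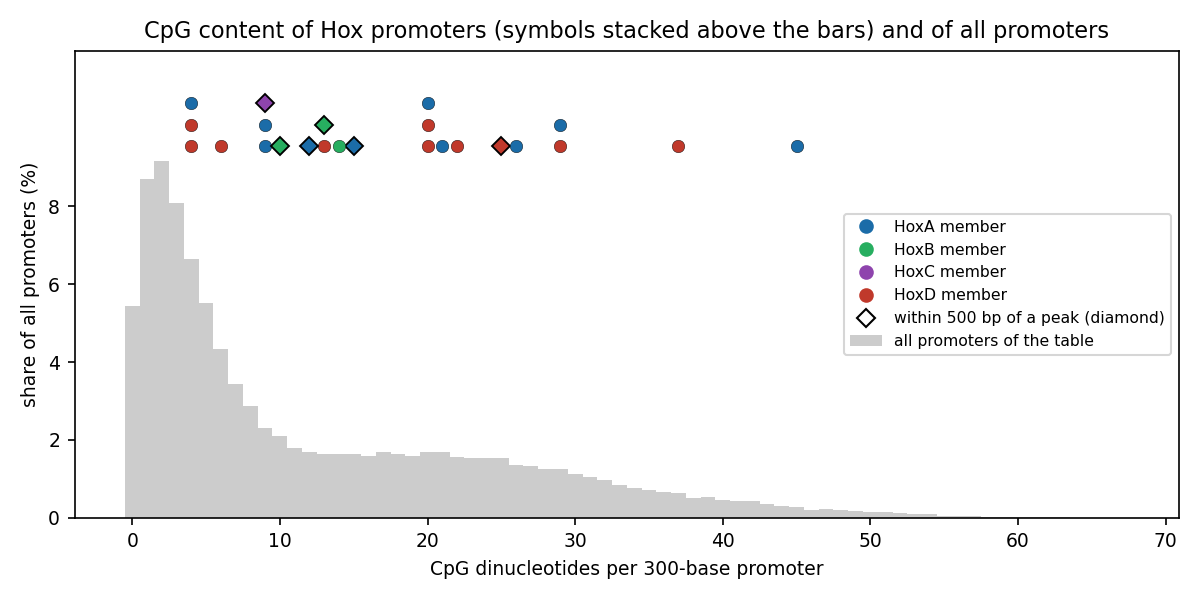
CpG dinucleotides per 300-base promoter (x axis) for all promoters of the RefSeq table (grey bars, share in % on the y axis) and for the 24 Hox promoters (symbols, coloured by cluster and stacked above the bars, with no y value). Diamonds mark Hox promoters within 500 bp of a peak, which lie between 9 and 25 CpGs, while several promoters with more CpGs are circles.

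The share of genes with a peak in the window was larger among Hox genes than among all protein-coding genes in each of the 4 libraries. The 0 h counts were 19 of 38 Hox genes (50%) for hairpin 133 and 20 (52.6%) for hairpin 14, against 12.7% and 11% of all protein-coding genes. The 24 h counts were 15 (39.5%) and 24 (63.2%), against 10.5% and 9.72%. In any library 27 Hox genes had a peak (26% of all protein-coding genes did), and 10 had one in all 4 libraries (2.07% of all did). Neighbouring Hox genes share windows, so these counts are not independent: 1 region between Hoxa7 and Hoxa9 counted for 4 genes. In gene bodies alone the counts were 6 and 7 at 0 h, then 5 and 12 at 24 h, with 8.84%, 7.87%, 7.19% and 6.78% of all genes as the background in the same order.

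Peaks per length also differed from those of all genes. The merged Hox windows span 510 kb and held, for hairpins 133 and 14, 11 and 13 peaks at 0 h, then 9 and 19 at 24 h. That is 21.6 and 25.5 peaks per Mb at 0 h and 17.6 and 37.2 at 24 h, against 2.16, 1.87, 1.7 and 1.59 over the merged windows of all protein-coding genes. The ratios were 9.99, 13.6, 10.4 and 23.5. The share of each list that lay at Hox genes was 0.282% (95% exact binomial interval 0.141 to 0.504%) and 0.378% (0.202 to 0.646%) at 0 h, and 0.304% (0.139 to 0.576%) and 0.713% (0.43 to 1.11%) at 24 h. These intervals cover counting error only, and each overlaps that of every other library. Hox clusters are rich in CpG islands and the assay selects CpG-dense DNA. The part of CpG density in these counts was not tested.

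**Figure D2:**
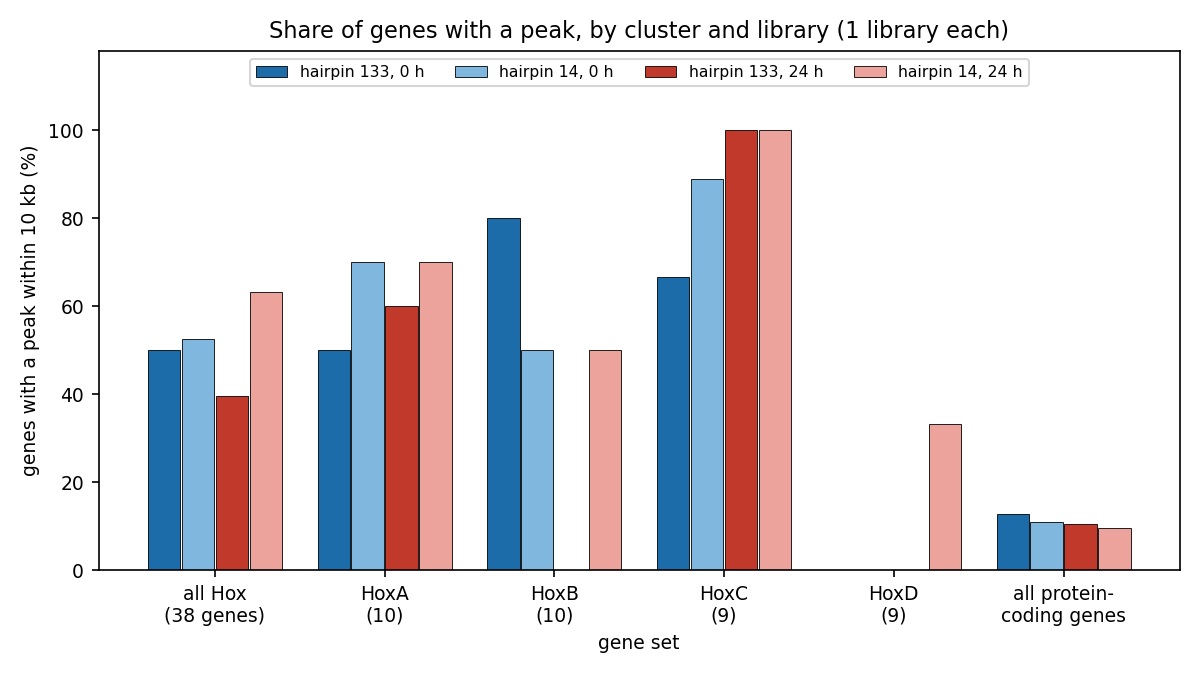
Share of genes with a peak within 10 kb (y axis, %) for all Hox genes, for each cluster and for all protein-coding genes, with 1 bar per library. The bars of all Hox genes stand between 39.5% and 63.2% and those of all protein-coding genes between 9.72% and 12.7%, HoxC reaches 100% in both 24 h libraries, and HoxD has 1 bar only.

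The 4 clusters differed in how many regions they held. HoxC had 12 regions, HoxA 9, HoxB 8 and HoxD 1. All 9 HoxC genes, 8 of 10 HoxB genes, 7 of 10 HoxA genes and 3 of 9 HoxD genes had a peak in at least 1 library. Among all protein-coding genes the share was 26%. The 11 Hox genes without a peak were Hoxa4, Hoxa5, Hoxa6, Hoxb2, Hoxb13, Hoxd1, Hoxd3, Hoxd4, Hoxd8, Hoxd9 and Hoxd13. Hoxd13, a gene of digit formation, was just outside the window, 10045 bp from the nearest peak, and Hoxa6 and Hoxb2 lay 12 and 12.1 kb away. Just inside were Hoxc10, which a region 9.79 kb away reaches, and Hoxa10, which 1 of its regions reaches from 9.53 kb.

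**Figure D3:**
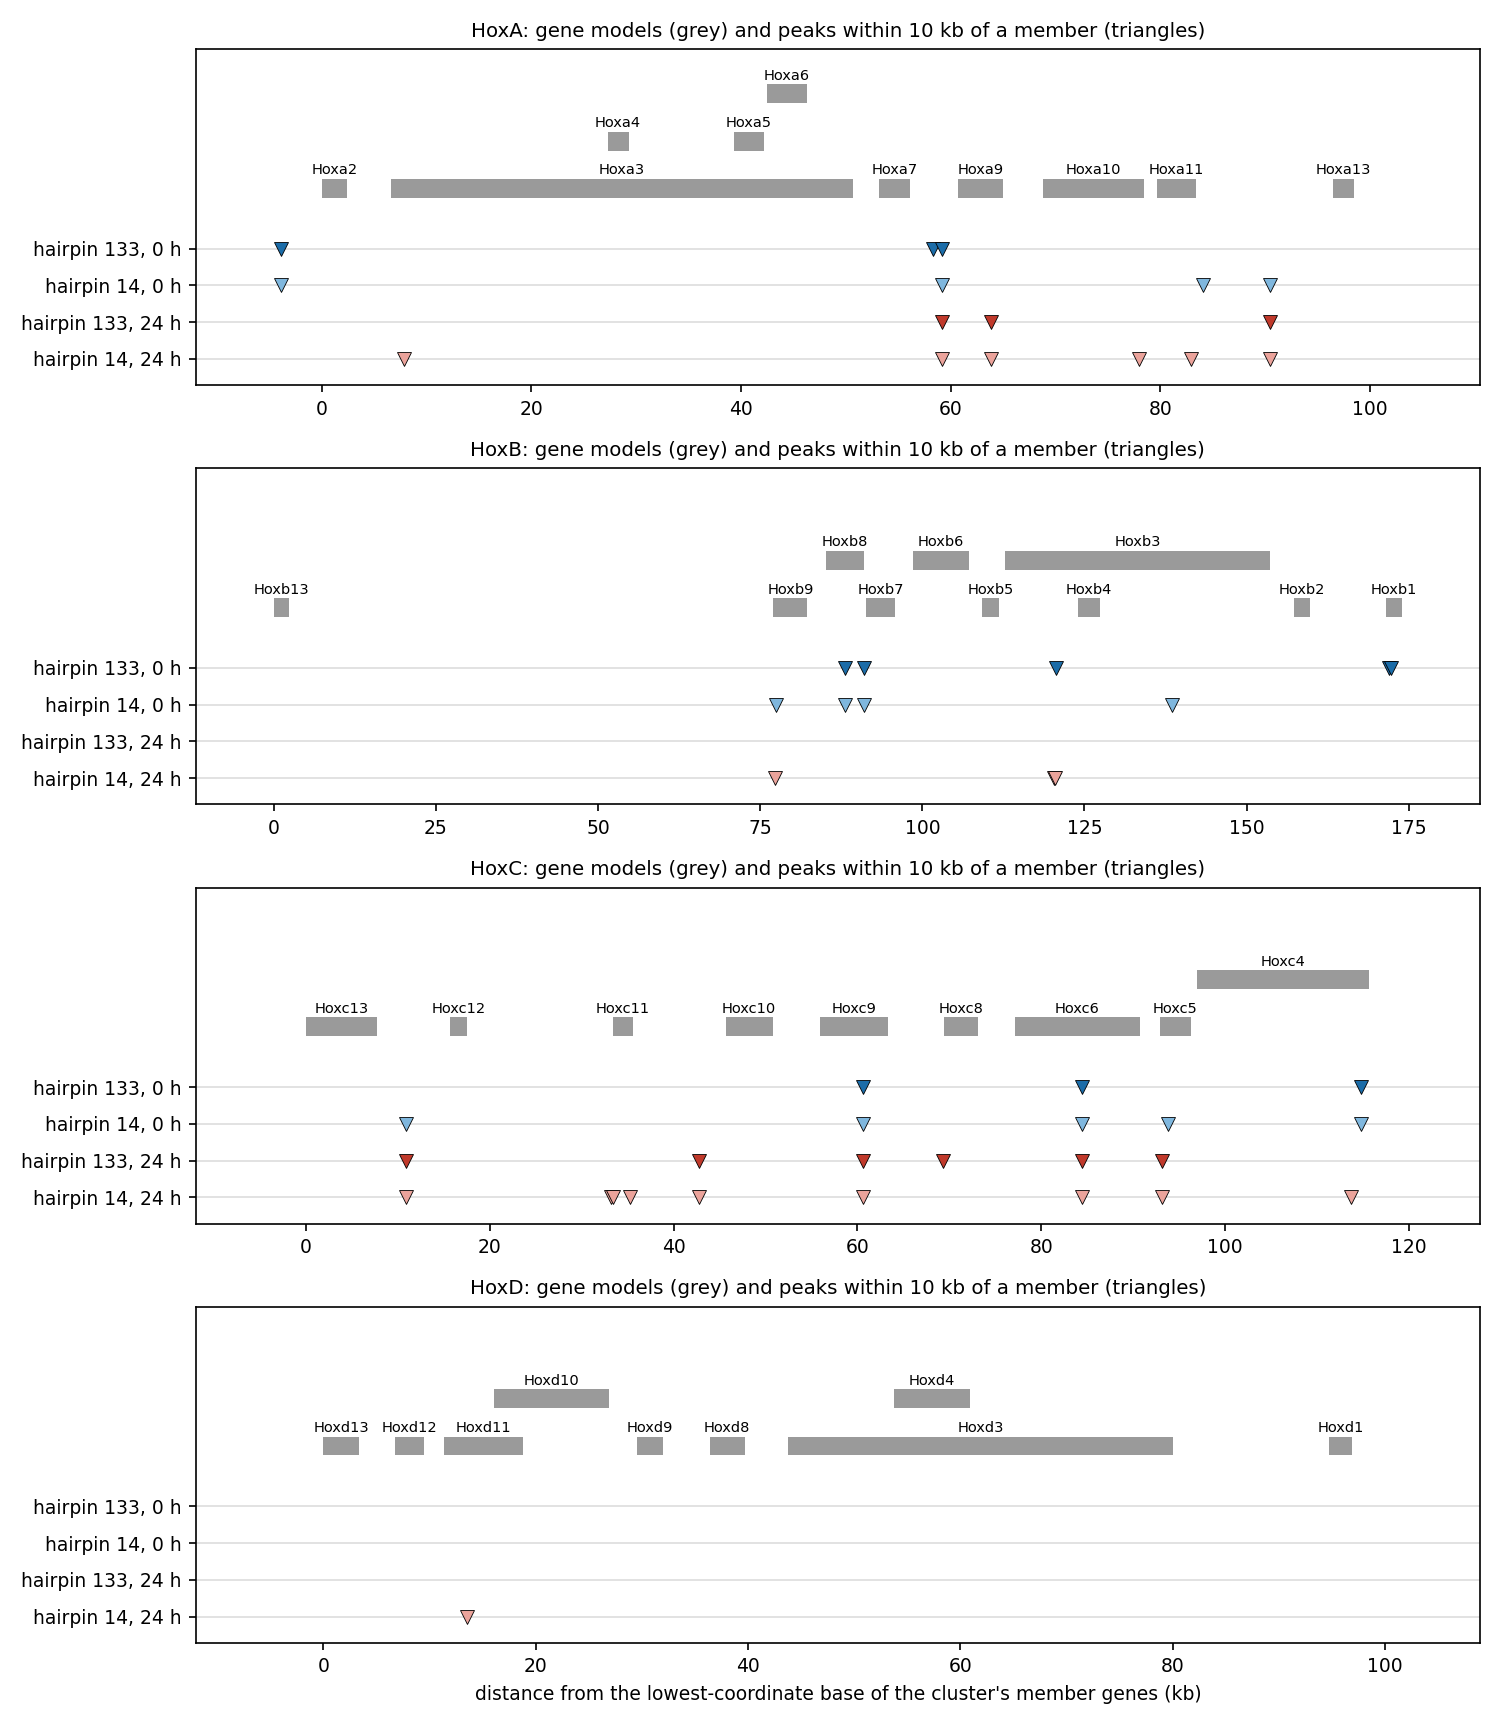
Gene models (grey bars, drawn in several lanes where they would overlap) and peaks (triangles, 1 row per library) along each cluster, with distance in kb from the lowest-coordinate base of the cluster's genes on the x axis. HoxA is drawn in genomic order, so its genes of low number are on the left, whereas in the other clusters they are on the right. Peaks that line up in all 4 rows are seen between Hoxa7 and Hoxa9, in Hoxc9 and in Hoxc6, and HoxD holds 1 peak.

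HoxA lies on chromosome 6, where its 10 genes span 98.5 kb (chr6:52162417-52260880). Hairpin 133 had 3 peaks there at each time, and hairpin 14 had 4 at 0 h and 6 at 24 h. The region chr6:52221503-52221670, between the bodies of Hoxa7 and Hoxa9, was listed in all 4 libraries. It lies 2.93 kb upstream of the start of Hoxa7 and 1427 bp beyond the far end of Hoxa9, and the windows of Hoxa3 and Hoxa10 also reach it. The peak was identical in both 0 h lists and identical in both 24 h lists, with a shift of 17 bp between the times. Next to it, 709 bp away, chr6:52220643-52220793 was listed only with hairpin 133 at 0 h.

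Hoxa9, a homeodomain factor of haematopoietic progenitors, had a peak in its body at 24 h with both hairpins and at 0 h with neither. That region, chr6:52226186-52226336, lies 1.03 kb downstream of the gene's start and had the same coordinates in both lists. Hoxa10, a homeodomain factor of the same progenitors, had 1 and 2 peaks in its window at 0 h, then 2 and 4 at 24 h, for hairpins 133 and 14. The peak inside its body, chr6:52240261-52240411, lies 443 bp downstream of its start and was listed with hairpin 14 at 24 h only.

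Hoxa11, a gene of limb, kidney and uterus development, had 0 and 2 peaks at 0 h, then 1 and 3 at 24 h. One of them, chr6:52245263-52245413, lies within the gene, 397 bp from its start, and over the first part of Hoxa11os, whose promoter is shown above. It was listed with hairpin 14 at 24 h only. Another, chr6:52246434-52246584, lies 624 bp upstream of Hoxa11 and was listed with hairpin 14 at 0 h only, so the peaks of the times were 1.02 kb apart. Between Hoxa11 and Hoxa13, a gene of the most distal limb, chr6:52252810-52252976 was listed in 3 libraries and was missing with hairpin 133 at 0 h.

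At the low-number end of HoxA, chr6:52158457-52158607 overlaps the ends of the non-coding RNA genes Hotairm1 and Hotairm2, 3.81 kb from Hoxa2, a gene of the hindbrain and second pharyngeal arch. It was listed at 0 h with both hairpins, with identical coordinates, and at 24 h with neither. The next region, chr6:52170176-52170326 in the body of Hoxa3, was listed with hairpin 14 at 24 h only. From there a stretch of 50.3 kb held no peak in any library. It contains Hoxa4, Hoxa5, Hoxa6, Hoxa7 and most of Hoxa3, and the windows of Hoxa3 and Hoxa7 reach peaks beyond it. The promoters of Hoxa5 (29 CpGs), Hoxa6 (26), Hoxa3 (20) and Hoxa7 (9) lie in this stretch.

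HoxB lies on chromosome 11, where its 10 genes span 174 kb (chr11:96194316-96368254). It held 5 and 4 peaks at 0 h, then 0 and 3 at 24 h, for hairpins 133 and 14. The list of hairpin 133 at 24 h was thus the only one with no peak at this cluster, and 5 of the 8 HoxB regions were listed at 0 h only (62.5%, against 49.6% of all regions within 10 kb of a protein-coding gene). All 8 lay in the body of a HoxB gene. No HoxB gene had a peak in all 4 libraries.

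The HoxB regions listed with both hairpins at 0 h were at Hoxb8, a regulator of myeloid progenitors. The peak chr11:96282347-96282497 lies in the gene, 393 bp beyond the promoter shown above, which belongs to a start site inside the gene model, and chr11:96285259-96285409 lies at the gene's far end, 195 bp upstream of the start of Hoxb7. Both had identical coordinates in the 0 h lists, and neither was listed at 24 h. Hoxb9, the gene before them, had a peak 229 bp downstream of its start with hairpin 14 at both times, at chr11:96271609-96271759 at 0 h and chr11:96271559-96271709 at 24 h. These overlapped with a shift of 50 bp, the largest shift of any Hox region, and hairpin 133 listed neither.

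Hoxb3 is a long gene model of 40.8 kb that also covers Hoxb4, known for expanding haematopoietic stem cells when overexpressed. The region chr11:96314763-96314923, 3.34 kb upstream of Hoxb4, was listed with hairpin 133 at 0 h and with hairpin 14 at 24 h. This was the only Hox region listed by libraries that shared neither hairpin nor time and by no others. With hairpin 14 at 24 h a second peak lay 120 bp before it, at chr11:96314492-96314642. Deeper in Hoxb3, chr11:96332794-96332944 was listed with hairpin 14 at 0 h only.

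Hoxb1, which specifies a hindbrain segment and lies at the low-number end of the cluster, had peaks only with hairpin 133 at 0 h. There were 2 of them, chr11:96366135-96366285 and chr11:96366493-96366643, at 389 and 747 bp downstream of the gene's start and 207 bp from each other. Hoxb13, a prostate and tail gene that stands apart from the rest of the cluster, had none within 18.6 kb.

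HoxC lies on chromosome 15, where its 9 genes span 116 kb (chr15:102921131-103036856). It held 3 and 5 peaks at 0 h, then 6 and 9 at 24 h, for hairpins 133 and 14, so it had more peaks at 24 h than at 0 h with each hairpin. With a peak were 6 and 8 of its 9 genes at 0 h and all 9 at 24 h with both hairpins. Among all protein-coding genes the shares were 12.7% and 11%, then 10.5% and 9.72%. Neighbouring HoxC genes share windows, so these counts are not independent. In HoxC gene bodies alone they were 3 and 4 at 0 h, then 4 and 5 at 24 h (8.84%, 7.87%, 7.19% and 6.78% of all genes). Of the 12 HoxC regions, 7 were listed at 24 h only (58.3%, against 40.1% of all regions within 10 kb of a protein-coding gene), 2 at 0 h only and 3 at both times. Counted as peaks, HoxB and HoxC thus went opposite ways between the times in both hairpins, a difference of a few peaks per library that was not tested. With hairpin 14 the HoxB fall was only from 4 to 3 peaks, and 5 HoxB genes had a peak at each time. The whole list of hairpin 14 also became shorter, from 3437 to 2666 peaks.

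**Figure D4:**
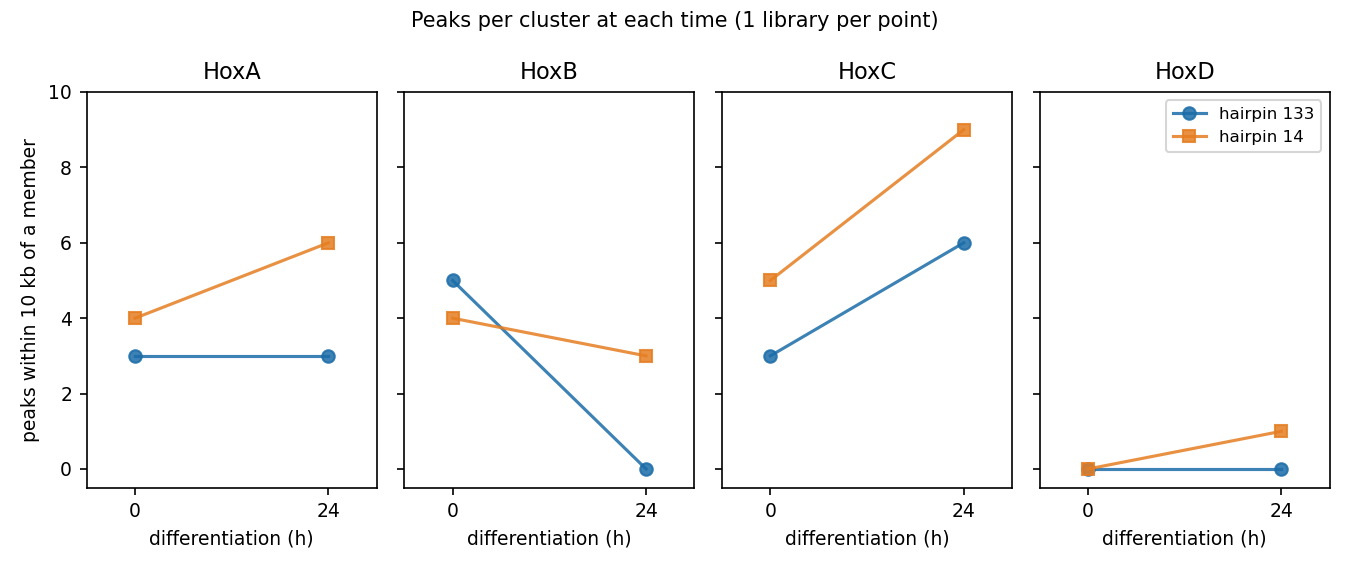
Number of peaks within 10 kb of a cluster's genes (y axis) at 0 h and 24 h of differentiation (x axis), with 1 panel per cluster and 1 line per hairpin, each point being 1 library. HoxC has more peaks at 24 h with both hairpins (3 to 6 and 5 to 9) and HoxB fewer (5 to 0 and 4 to 3), while the HoxA line of hairpin 133 is flat at 3.

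Regions in all 4 libraries were found in Hoxc9 and Hoxc6, genes of the thoracic body axis. The region in Hoxc9, chr15:102981684-102981838, lies 4.65 kb downstream of the gene's start and shifted by 4 bp between the times. The region in Hoxc6, chr15:103005517-103005681, lies 7.29 kb downstream of the start and shifted by 14 bp. Within each time the coordinates were identical in both hairpins. Hoxc6 and Hoxc9 were the only Hox genes with a peak in the body in every library.

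Hoxc11, a gene of the lumbar and sacral axis and the hindlimb, had 0 peaks at 0 h with either hairpin, 1 with hairpin 133 at 24 h and 4 with hairpin 14 at 24 h. Of these, chr15:102954487-102954637 spans the start of the gene model and chr15:102954283-102954433 lies 93 bp upstream of it. One more, chr15:102956251-102956401, lies in the gene, and all 3 were listed with hairpin 14 at 24 h only. They are also the only peaks within 10 kb of Hotair, the long non-coding RNA gene between Hoxc11 and Hoxc12. The last of the 4, chr15:102963766-102963916, lies 2.88 kb upstream of Hoxc10 and was listed with both hairpins at 24 h.

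Hoxc8, a gene of thoracic patterning, had a peak across its start, chr15:102990409-102990559, with hairpin 133 at 24 h only, and this was the only Hox region that this library alone listed. Between Hoxc13, a gene of hair and nail, and Hoxc12, chr15:102931890-102932051 was listed in 3 libraries and was missing with hairpin 133 at 0 h, the same libraries as the region between Hoxa11 and Hoxa13.

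At Hoxc5 the libraries of the 2 times listed neighbouring regions that did not overlap. At 24 h both hairpins listed chr15:103014244-103014394, 236 bp downstream of the gene's start. At 0 h hairpin 14 listed chr15:103014802-103014952, which begins 407 bp beyond its end and ends within Mir615, a microRNA gene inside Hoxc5. Hoxc4 shows a like arrangement: 0 h lists of both hairpins held chr15:103035804-103035954, and the 24 h list of hairpin 14 held chr15:103034756-103034906, 897 bp away and 312 bp beyond the promoter shown above, which belongs to an inner start site.

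The 0 h peak at Mir615 covered all 22 bases of one mature arm and none of the other. The mature sequences are shown with the seed, bases 2 to 8, in capitals, because this is the only Hox-cluster microRNA whose gene a peak overlapped.
mmu-miR-615-5p, inside the peak, chr15:103014926-103014947, plus strand: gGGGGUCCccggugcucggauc
mmu-miR-615-3p, outside the peak, chr15:103014969-103014990, plus strand: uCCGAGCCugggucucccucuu

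These arms hold different seeds. The other microRNA genes of the clusters lay outside peaks, Mir10a at 2.24 kb from the nearest Hox region, Mir196b at 3.75 kb, Mir196a-1 at 6.29 kb, Mir196a-2 at 8.25 kb and Mir10b, in HoxD, at 44.3 kb. Of the 16 non-coding RNA genes of the clusters that were looked up, 9 and 11 had a peak within 10 kb at 0 h, then 6 and 12 at 24 h. They lie among the Hox genes, so these are the Hox regions counted again.

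HoxD lies on chromosome 2, where its 9 genes span 96.9 kb (chr2:74668225-74765142), about as long as HoxA. It held 0 peaks in 3 libraries and 1 with hairpin 14 at 24 h. This peak, chr2:74681648-74681798, lies in Hoxd11, a gene of forelimb and kidney development, 275 bp before the promoter shown above, which belongs to a start site inside the gene model. The windows of Hoxd10 and Hoxd12 reach it. The HoxD genes with no peak within 10 kb and a promoter in the table were Hoxd13 (37 CpGs), Hoxd1 (29), Hoxd9 (20), Hoxd3 (20), Hoxd8 (6) and Hoxd4 (4).

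**Figure D5:**
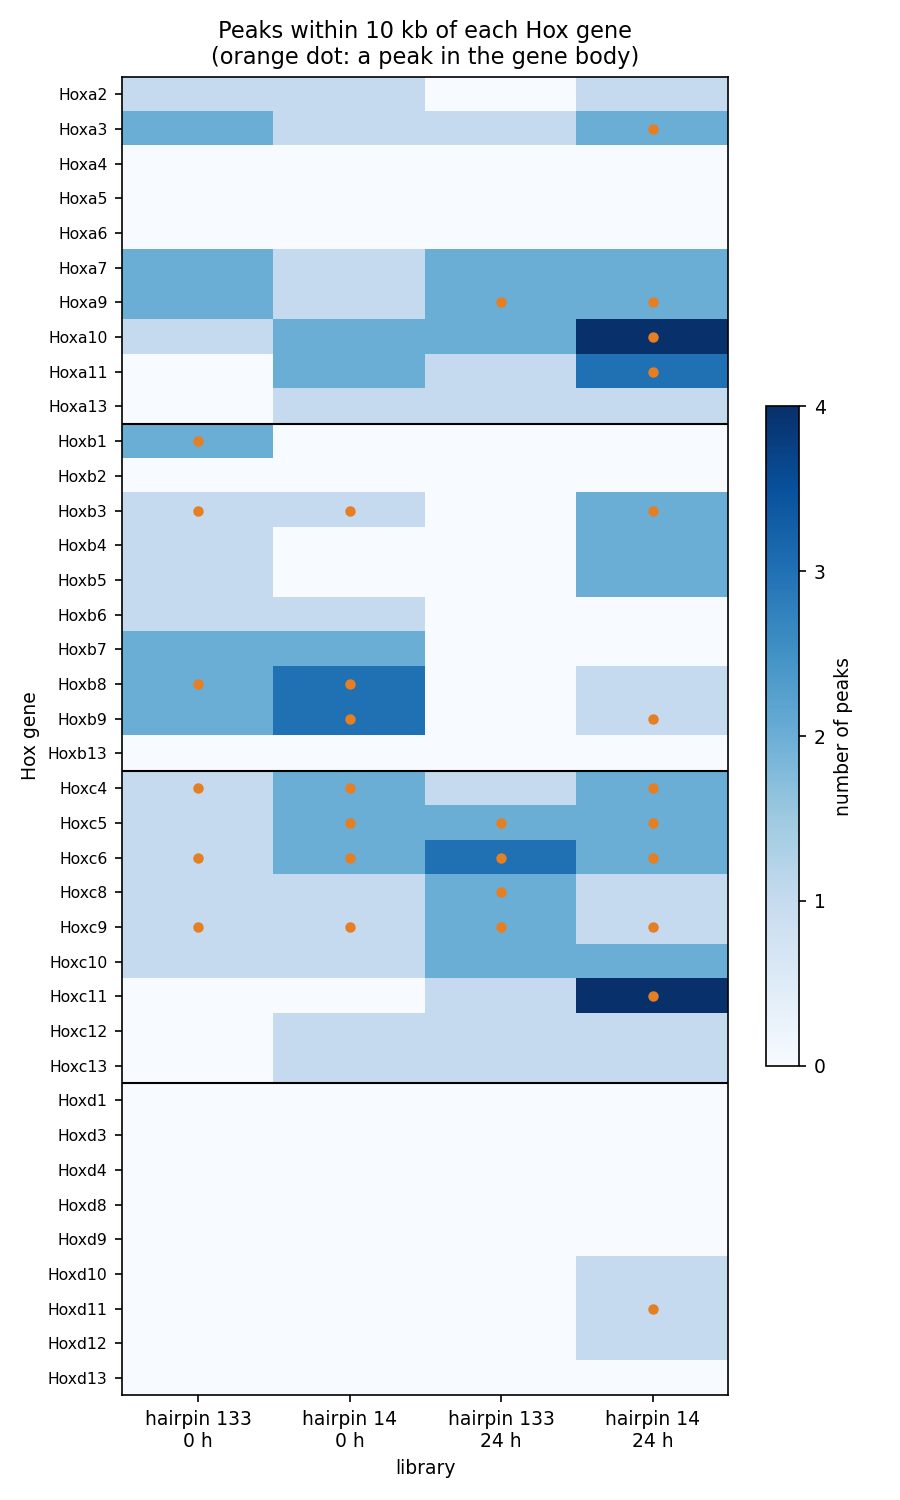
Number of peaks within 10 kb of each Hox gene (colour, 0 to 4) in each library (columns), with lines between clusters A, B, C and D from top to bottom. Orange dots mark a peak in the gene body. The column of hairpin 14 at 24 h holds both squares with 4 peaks, at Hoxa10 and Hoxc11, and 10 genes are coloured in all 4 columns, all of them in HoxA or HoxC.

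By position on the body axis, the genes of paralog groups 9 to 13 had peaks at 5 and 9 of 16 members at 0 h (hairpins 133 and 14) and at 9 and 13 at 24 h. Groups 4 to 8 had them at 10 and 8 of 15 members at 0 h, then at 5 and 8 at 24 h, and groups 1 to 3 at 4 and 3 of 7 at 0 h, then at 1 and 3 at 24 h. Over all protein-coding genes the shares were 12.7% and 11% at 0 h, then 10.5% and 9.72% at 24 h. Counted as peaks, groups 9 to 13 had 5 and 8 at 0 h, then 7 and 13 at 24 h, groups 4 to 8 had 8 and 8, then 6 and 9, and groups 1 to 3 had 6 and 3, then 1 and 4. A peak in the windows of more than 1 of these groups was counted in each, so the group counts overlap. The 1 peak of groups 1 to 3 with hairpin 133 at 24 h lay between Hoxa7 and Hoxa9, in the window of the long Hoxa3 model. The differences between the times were not tested.

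Hox regions came from a single library in a smaller share than all regions did. Of the 30 regions 16 came from 1 library (53.3%, against 77.7% of the 7157 regions within 10 kb of a protein-coding gene), 9 from 2, 2 from 3 and 3 from 4 (2.95% of all regions). Both hairpins listed 7 of the 30 at 0 h, which is 63.6% of the Hox regions of hairpin 133 and 53.8% of those of hairpin 14. The other 23 (76.7%) were not listed with both, as were not 87.5% of all regions. The 24 h libraries had 8 in common, 88.9% of the Hox regions of hairpin 133 and 42.1% of those of hairpin 14. The other 22 of the 30 (73.3%) were not listed with both at 24 h, as were not 91.3% of all regions. The 22 include the 10 regions listed at 0 h only, and the 23 include the 13 listed at 24 h only. The shares of all regions also include regions absent from both lists of a time. All 15 pairs listed with both hairpins at a time had the same start and end in both lists. No source used here tells if lists of one time were called against a common control library, and its part in these identities was not tested.

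Across times, 3 Hox regions were listed at 0 h and 24 h with hairpin 133 (5.9% of all regions were) and 6 with hairpin 14 (5.62%). None of them had the same coordinates at both times. By time, 10 regions were listed at 0 h only, 13 at 24 h only and 7 at both, or 33.3%, 43.3% and 23.3%, against 49.6%, 40.1% and 10.4% of all regions. By hairpin, 4 regions were listed with hairpin 133 only (13.3%, against 43.4%), 13 with hairpin 14 only (43.3%, against 36.5%) and 13 with both at any time (43.3%, against 20.1%). Of the 16 regions of 1 library, 9 came from hairpin 14 at 24 h, the shortest of the 4 lists, 3 each from the 0 h lists and 1 from hairpin 133 at 24 h.

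Most Hox regions lay in Hox genes. Of the 30, 22 overlapped the body of a Hox gene and 8 lay outside them, 5 of them in HoxA and 3 in HoxC. Within 1 kb of an end of a Hox gene were 14 (46.7%), against 19.4% of all regions near protein-coding genes. Hox genes are short and close together, and such ends take up 28.4% of the length of their windows, against 6.15% for all protein-coding genes. Exons, introns and untranslated parts could not be told apart with the gene table used here.

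The genes of proteins that work with or act on Hox genes were counted in the same way, and the shares of all protein-coding genes given above are their background. Among 9 TALE homeodomain genes, whose products bind DNA together with Hox proteins, 5 and 2 had a peak within 10 kb at 0 h, then 2 and 1 at 24 h, or 55.6% with hairpin 133 at 0 h and 11.1 to 22.2% in the other libraries. Meis2 had peaks in all 4 libraries (4, 1, 4 and 3, in the order hairpins 133 and 14 at 0 h and then at 24 h), and Meis1, a partner of Hoxa9 in leukaemia, in 3 (1, 1, 2 and 0). Pknox2 had 4 and Pbx2 and Pbx4 1 each, all with hairpin 133 at 0 h only. Meis1, Meis2 and Pknox2 are long gene models with wide windows, and the part of gene length in these counts was not tested. Among 29 Polycomb genes, which keep Hox genes silent, 5 and 6 had a peak at 0 h, then 4 and 6 at 24 h, or 13.8 to 20.7% per library. Cbx2 had peaks in all 4 libraries, and Cbx7, Cbx8 and Jarid2 in 2 each.

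Among 14 genes that activate Hox clusters, such as the Cdx factors and the Kmt2a complex, 1 and 0 had a peak at 0 h, then 2 and 2 at 24 h. They were Cdx2, with both hairpins at 24 h only, and Dot1l, Psip1 and Rbbp5 in 1 library each. Of 14 genes of retinoic acid signalling, which induces Hox genes in the embryo, 2 and 5 had a peak at 0 h, then 4 and 4 at 24 h, led by the receptor gene Rara in all 4 libraries. Aldh1a2, an enzyme of retinoic acid synthesis, and Crabp1, a binding protein, had peaks in 3, and Cyp26b1 and Rxra in 2. Among 16 genes that flank the clusters, 5 and 5 had a peak at 0 h, then 3 and 5 at 24 h, with Skap1 and Ttll6 in all 4 libraries and Cbx5, Evx1 and Smug1 in 2. None of these peaks lay in the window of a Hox gene.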

How the data were processed

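Methyl-CpG immunoprecipitation with MBD2-Fc was followed by sequencing. Per the labels' protocols, the input was 3 ug of DNA in fragments of about 150 bp, captured by 60 ug of MBD2-Fc and released with 1 M NaCl. The submitters' processing notes name HOMER, BWA, SAMtools and Picard and the build mm10. Their roles, versions and settings, the peak threshold and the control used are not given in the sources used here. The deposited lists hold start and end positions of peaks in bp and no other values, so a count below is a number of peaks and not of reads. Widths were 151 bp but for 1 peak of 120 bp. Starts were read as 0-based and are printed 1-based.

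Genes came from the RefSeq table of GRCm38.p6, whose coordinates are those of mm10 (21887 nuclear protein-coding genes). All 38 Hox genes matched. Peaks of all lists that overlapped by at least 1 bp were merged into regions. Start sites follow the common direction of a cluster's genes, as the promoter table gives it for the genes that matched, and distances are to the outermost modelled start. The counting was tested on simulated lists. Python 3.11.15, numpy 2.4.6 and scipy 1.17.1 were used. Each group is 1 library, so counts stand beside those over all genes or regions and no test was made. The Hox genes and gene lists were chosen with earlier results of these data known. Of the list symbols, Prac1 and Prac2 were not matched. From each list up to 5 genes with a peak in most libraries are named, ties in alphabetical order, and Hox genes, Hox regions and the RNA genes that lie at them without restriction. One gene that this rule would name is not reported here.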

Additional observations from a re-analysis of the deposited data

Results flagged for a closer look

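Over all Hox genes, the hairpins went opposite ways between 0 h and 24 h. The number of Hox genes with a peak went from 19 to 15 with hairpin 133 and from 20 to 24 with hairpin 14. The number of Hox peaks went from 11 to 9 with hairpin 133 and from 13 to 19 with hairpin 14, while the lists as a whole became shorter with both. The same was seen for peaks at paralog groups 1 to 3 (6 to 1 with hairpin 133, 3 to 4 with hairpin 14) and groups 4 to 8 (8 to 6, and 8 to 9). It was not seen in every group: peaks at paralog groups 9 to 13 went from 5 to 7 with hairpin 133 and from 8 to 13 with hairpin 14, those at HoxC from 3 to 6 and from 5 to 9, and those at HoxB from 5 to 0 and from 4 to 3. A peak in the windows of more than 1 paralog group was counted in each, so the counts of these groups overlap. Each value comes from 1 library and the difference between the hairpins was not tested.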

How the results depend on the processing

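Of 106 counts under another setting, 83 were within 1.5 times the reported count, among them all under windows of 50 kb, a reciprocal overlap of 50%, joining of peaks up to 500 bp apart and placement by the peak's centre. In gene bodies alone the Hox genes with a peak were 6 and 7 at 0 h, then 5 and 12 at 24 h (hairpins 133 and 14), peaks of hairpin 14 at 0 h were 8 and of hairpin 133 at 24 h 5, HoxA regions 4, regions of both hairpins at 24 h 4, and regions of hairpin 14 at both times 3. With windows of 5 kb, 11 Hox genes had a peak with hairpin 133 at 0 h. Without peaks of identical coordinates in both libraries of a time, the Hox genes with a peak were 7 and 11 at 0 h, then 3 and 14 at 24 h, and HoxC had 7 regions. Because every Hox pair shared within a time had identical coordinates, 0 regions were then left in both hairpins at either time or in all 4 libraries. At both times 0 regions were left with hairpin 133 and 1 with hairpin 14. With only identical coordinates taken as shared, 0 regions were found at both times with either hairpin, or in all 4 libraries. Against all genes of the table in place of protein-coding ones, the background was 8.47% and 7.6% at 0 h and 7.09% and 6.43% at 24 h.

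Leaving out 1 library at a time, an alternative chosen after seeing the data, gave 21 to 29 Hox regions, 6 to 9 in HoxA, 6 to 8 in HoxB, 8 to 12 in HoxC and 0 to 1 in HoxD. The single HoxD region came from hairpin 14 at 24 h, and without that library HoxD had 0. The stricter threshold on peaks was not run because the lists hold no score. No paired analysis was possible because no result comes from a test: each hairpin and time has 1 library, the labels give no replicate numbers, and the values of each hairpin at both times are given side by side.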

Other observations

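Between 10 and 60 kb from the Hox genes 4 further regions were listed. The region chr11:96175532-96175682, 18.6 kb from Hoxb13 and 9.35 kb from Ttll6, a tubulin glutamylase gene, had the same coordinates in all 4 libraries, which no region within the Hox windows had. In the wide space between Hoxb13 and Hoxb9, chr11:96238988-96239138 was listed with hairpin 14 at 0 h, 32.2 kb from Hoxb9. At HoxA, chr6:52137604-52137764 was listed at 24 h with both hairpins, with a shift between them, 24.7 kb from Hoxa2, and chr6:52291309-52291459 with hairpin 14 at 24 h, 30.4 kb from Hoxa13 and 22 kb from the homeobox gene Evx1. None lay within 60 kb of HoxC or HoxD outside the Hox windows.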
